A study of Homo sapiens with 4 samples.

Results

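LINC genes are long intergenic noncoding RNA genes that received a number for want of any other name. Members were the genes with a symbol of LINC followed only by digits and with at least 50 counts in at least 2 of the 4 libraries, and 102 of 2110 such LINC rows met this rule, out of 60662 rows in the table. The libraries came from U937, an established human myeloid cell line derived from a histiocytic lymphoma, with no genetic change named in the labels. One group was left untreated and the other received PMA at 10 nM, and both were taken after 72 h. PMA is the compound phorbol 12-myristate 13-acetate, which turns on protein kinase C. Each group had 2 libraries, 1 from each of 2 lots of cells, written below as lot 1 and lot 2. The labels give macrophage-like differentiation as the purpose of the treatment. They do not say that the lots were cultured separately, so a p-value here measures only how far these libraries differ, and that spread may be technical.

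Long intergenic noncoding RNAs are transcribed by RNA polymerase II, and many are spliced and carry a poly(A) tail. They are usually less abundant and more restricted to certain cell types than messenger RNAs. Some act on the transcription of a neighbouring gene, others bind proteins or RNAs elsewhere in the cell, a few encode small proteins, and for most no function is known. In myeloid cells, many are switched on or off during differentiation and immune activation.

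Levels are CPM, counts scaled to a common TMM-adjusted library size, and log2 fold changes compare PMA with untreated libraries and carry their standard error. A gene was called where edgeR's quasi-likelihood test gave a Benjamini-Hochberg adjusted p under 0.05 over all 16451 genes tested. Depth ran from 35739833 to 54915928 counts per library, and mitochondrial transcripts took 2.81% to 8.58% of counts, with both lot 2 libraries above both lot 1 libraries. The myeloid markers PTPRC, SPI1, CD33, CD4 and CEBPA were above 0 in all 4 libraries, MPO was at 0 in all 4, and 5 of 12 tested myeloid markers rose. Of 27 markers of other cell types, 17 were at 0 in all 4 libraries, including CD3E, MS4A1, KRT8, COL1A1 and CDH5. Their summed level was 56.3 to 70.8 CPM untreated and 1477 to 1960 CPM with PMA, most of it from PECAM1, an adhesion molecule that monocytes also carry and the 1 called marker. In bulk RNA, fewer cells that make a transcript and less transcript per cell cannot be told apart.

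A selection of 7 promoters of LINC genes is shown first. RefSeq promoters on GRCh38.p14, covering 250 bases before and 50 after the annotated start, matched 73 of the 102 members. LINC02345 (chr15:38040143-38040442, plus strand) and LINC01282 (chrX:39391725-39392024, minus strand) had the highest levels with PMA, per kb of transcript, among genes that rose. LINC01010 (chr6:134437466-134437765, plus), LINC02009 (chr3:46423618-46423917, minus) and LINC00702 (chr10:4243863-4244162, minus) rose from 0 and hold the letters of an AP-1 site. They are the only 3 with these letters among the 9 genes that rose and have a promoter. LINC01281, LINC01537, LINC01588 and LINC02801 also rose, hold no AP-1 match and are not shown. LINC00539 (chr13:21344810-21345109, minus) fell, and LINC00963 (chr9:129488410-129488709, plus) was abundant in all 4 libraries and not called. Capitals mark matches to the 7 motifs searched, spelled out with the promoter results.
LINC02345: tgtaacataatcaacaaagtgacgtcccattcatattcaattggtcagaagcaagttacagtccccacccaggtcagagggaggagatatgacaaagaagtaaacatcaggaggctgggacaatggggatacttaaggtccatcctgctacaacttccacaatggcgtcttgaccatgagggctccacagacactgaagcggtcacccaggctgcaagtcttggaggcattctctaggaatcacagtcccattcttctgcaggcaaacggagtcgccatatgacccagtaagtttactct
LINC01282: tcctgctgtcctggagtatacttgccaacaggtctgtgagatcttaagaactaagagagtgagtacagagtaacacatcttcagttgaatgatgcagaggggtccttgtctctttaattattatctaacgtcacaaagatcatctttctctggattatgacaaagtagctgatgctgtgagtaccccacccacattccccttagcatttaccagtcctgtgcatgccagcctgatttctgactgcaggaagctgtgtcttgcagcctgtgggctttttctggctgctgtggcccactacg
LINC01010: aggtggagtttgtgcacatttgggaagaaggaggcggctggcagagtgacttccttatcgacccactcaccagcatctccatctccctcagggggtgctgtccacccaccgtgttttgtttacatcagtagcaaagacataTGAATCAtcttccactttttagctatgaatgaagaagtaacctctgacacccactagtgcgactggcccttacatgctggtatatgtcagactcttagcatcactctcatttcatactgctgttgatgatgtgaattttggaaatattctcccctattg
LINC02009: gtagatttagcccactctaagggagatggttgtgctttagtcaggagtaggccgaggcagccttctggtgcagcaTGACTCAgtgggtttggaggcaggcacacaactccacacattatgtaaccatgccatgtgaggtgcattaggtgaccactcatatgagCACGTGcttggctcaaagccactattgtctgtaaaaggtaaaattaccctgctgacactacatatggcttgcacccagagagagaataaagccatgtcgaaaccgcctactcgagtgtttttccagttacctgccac
LINC00702: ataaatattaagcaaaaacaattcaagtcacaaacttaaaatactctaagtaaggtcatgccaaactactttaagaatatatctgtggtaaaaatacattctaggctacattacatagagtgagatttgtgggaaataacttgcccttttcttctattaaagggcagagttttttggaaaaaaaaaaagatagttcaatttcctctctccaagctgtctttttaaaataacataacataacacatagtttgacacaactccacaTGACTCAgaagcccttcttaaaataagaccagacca
LINC00539: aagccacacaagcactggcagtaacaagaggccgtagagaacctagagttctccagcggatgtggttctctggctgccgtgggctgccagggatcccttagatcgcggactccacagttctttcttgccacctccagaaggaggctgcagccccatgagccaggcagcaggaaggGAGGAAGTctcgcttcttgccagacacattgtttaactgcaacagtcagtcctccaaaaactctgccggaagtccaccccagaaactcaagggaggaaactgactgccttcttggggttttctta
LINC00963: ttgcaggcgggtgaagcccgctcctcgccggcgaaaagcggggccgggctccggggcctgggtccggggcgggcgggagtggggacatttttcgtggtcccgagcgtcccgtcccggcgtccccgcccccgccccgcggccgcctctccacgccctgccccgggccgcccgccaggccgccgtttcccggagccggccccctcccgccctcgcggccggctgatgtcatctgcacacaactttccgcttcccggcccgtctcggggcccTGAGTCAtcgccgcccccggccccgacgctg

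With PMA, 12 LINC genes rose and 2 fell. Among all tested genes 6.30% were called in either direction, 4.29% higher and 2.02% lower. All LINC rows that entered the test numbered 191, and the 14 calls are 7.33% of them. Every call lay among the 102 members, 13.7% of them, against 7.68% of all genes meeting the same count rule. The members were chosen by these same counts, and each of the 14 called genes met the rule through 1 group alone, 12 through the PMA libraries and 2 through the untreated ones. None of the 69 members with at least 50 counts in at least 1 library of each group was called. These shares therefore describe the selection together with the treatment. With the lot fitted as a replicate block, 7 of the 14 calls were kept, all of them higher, both lower calls were lost, and LINC02470 was called lower. DESeq2 called 34 higher and 16 lower, where it called 13.2% and 10.4% of all its genes. No share over all genes stands beside the block counts, so they are only descriptions. Leaving out a library leaves 1 in a group, so the number of calls in those fits is not given.

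The called genes were mostly silent in 1 condition. Counts of 0 in both untreated libraries were found for 11 members, 10.8% of 102, and for 1.45% of all genes meeting the rule. Counts of 0 in both PMA libraries were found for 4 members, 3.92%, and for 0.778% of all such genes. LINC01473 and LINC00634, LINC genes just under the minimum, were also at 0 in both PMA libraries. A gene at 0 in 1 group could meet the rule only through the other, and the shares above were not matched for level. They describe the selection together with the treatment. A count of 0 allows up to 3 counts, 0.0475 to 0.0921 CPM by library, and covers counting error only. Folds for these genes are lower bounds on group means, the mean of the higher group over the mean of those limits in the other. A bound for a single lot can be smaller, and a fitted log2 fold change depends on the prior count.

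**Figure D1:**
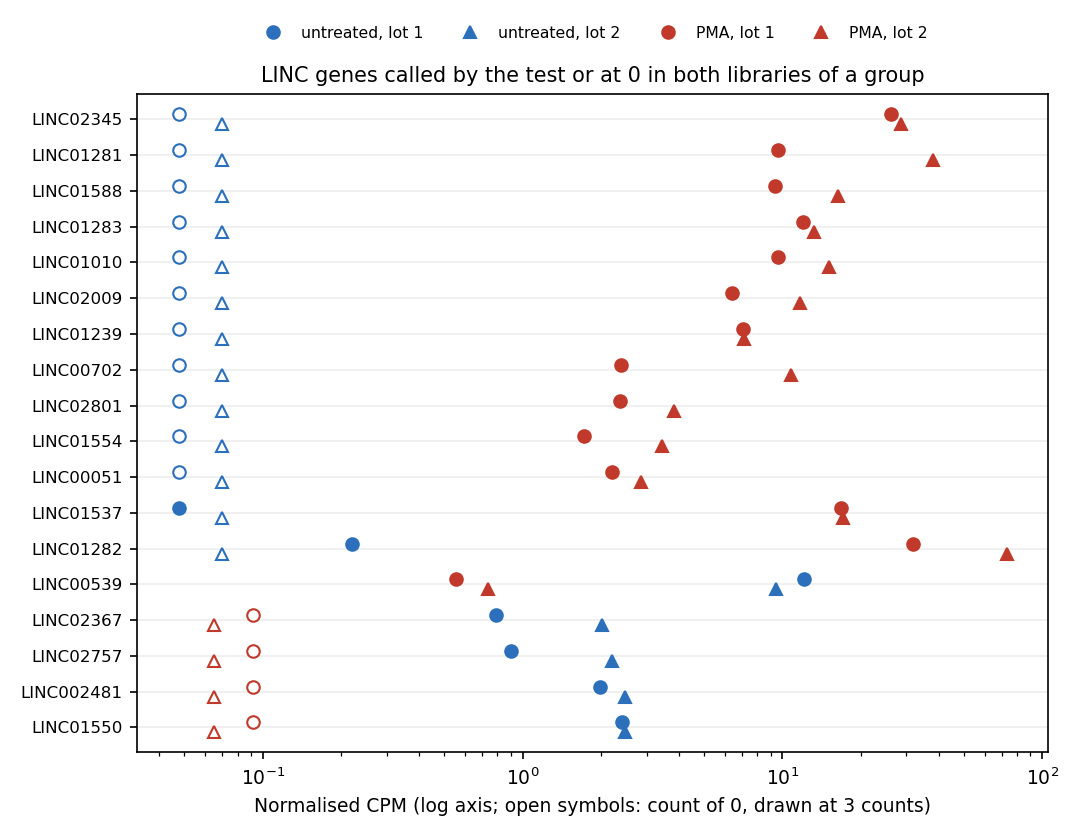
Normalised CPM (log axis) in each of the 4 libraries for the LINC genes that were called or at 0 in both libraries of a group, ordered by fitted log2 fold change; circles are lot 1, triangles lot 2, and open symbols are counts of 0 drawn at 3 counts. The 12 genes called higher lie at 2.21 CPM or more in both PMA libraries and at 0.222 CPM or less in both untreated libraries.

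LINC02345 stood at 0 in both untreated libraries and at 26.2 and 28.6 CPM in PMA lots 1 and 2. The PMA level was at least 468-fold higher (edgeR adjusted p = 0.0202), and this was the smallest adjusted p of any member. LINC01588 stood at 0 and 0 CPM untreated and at 9.39 and 16.3 CPM with PMA, at least 220-fold higher (edgeR adjusted p = 0.0256). Both genes were separated between the groups by far more than the lots differed, and both stayed called under all 12 alternatives tried. LINC01010 was absent from both untreated libraries and at 9.57 and 15.1 CPM with PMA, at least 211-fold higher (edgeR adjusted p = 0.0253). LINC02009 went from counts of 0 to 6.41 and 11.7 CPM, at least 155-fold higher (edgeR adjusted p = 0.0281). These were likewise called under all 12 alternatives, and in each the lot 2 PMA library was the higher.

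LINC01537 had 3 counts in untreated lot 1 (0.0475 CPM), 0 in untreated lot 2, and 16.9 and 17.2 CPM with PMA (edgeR adjusted p = 0.0254). Its PMA libraries were nearly equal, and the call held under all 12 alternatives. LINC01239 was at 0 untreated and at 7.03 and 7.14 CPM with PMA, at least 121-fold higher (edgeR adjusted p = 0.0280, and 0.0510 with the replicate block). The block alone of the 12 alternatives ended that call.

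A run of neighbouring LINC genes on chromosome X rose together. LINC01281, LINC01282 and LINC01283 lie on the minus strand with no other gene between them in GENCODE release 29. LINC01282 was at 0.222 and 0 CPM untreated and at 31.9 and 73.0 CPM with PMA (log2 fold change 8.74 ± 1.41, edgeR adjusted p = 0.0376, and 0.0544 with the replicate block). LINC01281 was at 0 untreated and at 9.64 and 38.1 CPM with PMA, at least 408-fold higher by group means (edgeR adjusted p = 0.0343, and 0.0509 by limma-voom). Taken by lot, its bounds were 203-fold in lot 1 and 548-fold in lot 2. LINC01283 was at 0 untreated and at 12.0 and 13.3 CPM with PMA, at least 216-fold higher (edgeR adjusted p = 0.0236), and was called under all 12 alternatives. Between the PMA lots, LINC01281 and LINC01282 were higher in lot 2, whereas LINC01283 was close to even. Per kb of the longest transcript, mean PMA levels were 59.6 CPM for LINC01282, 16.0 for LINC01283 and 13.5 for LINC01281. The protein-coding genes on either side of this run did not pass the test: MID1IP1, which acts in fatty acid synthesis, had 227 and 166 CPM untreated and 170 and 275 with PMA (edgeR adjusted p = 0.808). BCOR, a transcriptional corepressor, had 165 and 48.4 CPM untreated and 166 and 125 with PMA (edgeR adjusted p = 0.712). Both neighbours overlapped between the groups. All 3 LINC genes did not, but each met the count rule through the PMA libraries alone.

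The remaining genes that rose were at low levels. LINC00702 was at 0 untreated and at 2.39 and 10.8 CPM with PMA, at least 113-fold higher by group means (edgeR adjusted p = 0.0483). Taken by lot, its bounds were 50.4-fold in lot 1 and 156-fold in lot 2. Its call ended with the replicate block (0.0543), limma-voom, upper-quartile factors, and without PMA lot 2 (0.122) or untreated lot 2 (0.0531). LINC02801 was at 0 untreated and at 2.36 and 3.83 CPM with PMA, at least 52.9-fold higher (edgeR adjusted p = 0.0436), and was not called with the block (0.0799) or without PMA lot 1 (0.0509) or lot 2 (0.125). LINC00051 was at 0 untreated and at 2.21 and 2.86 CPM with PMA, at least 43.3-fold higher (edgeR adjusted p = 0.0469), with the call lost under the block (0.0879), upper-quartile factors and without PMA lot 1 (0.0808) or lot 2 (0.139). All 3 met the count rule through the PMA libraries alone, so that their groups did not overlap was fixed by the selection. LINC01554, at 0 untreated and at 1.72 and 3.44 CPM with PMA, missed the threshold (edgeR adjusted p = 0.0506).

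On the falling side, LINC00539 was at 12.1 and 9.43 CPM untreated and at 0.552 and 0.735 CPM with PMA. Both untreated libraries lay far above both PMA libraries (log2 fold change −4.05 ± 0.62, edgeR adjusted p = 0.0348). This call was lost with the replicate block (0.0540) and without PMA lot 1 (0.114) or PMA lot 2 (0.101). LINC01550 was at 2.41 and 2.48 CPM untreated and at 0 in both PMA libraries, at least 31.1-fold lower (edgeR adjusted p = 0.0497). That call ended under 7 of the 12 alternatives, including the block (0.0921) and leaving out any 1 library (0.0538 to 0.115).

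A further 3 members were at 0 in both PMA libraries without passing the test. LINC002481, whose identifier is now paired with the symbol LINC02481, was at 1.99 and 2.48 CPM untreated (edgeR adjusted p = 0.0519). LINC02757 had 0.902 and 2.20 CPM untreated (edgeR adjusted p = 0.0676), and LINC02367 had 0.791 and 2.02 CPM (edgeR adjusted p = 0.0718). All 3 had lower levels in untreated lot 1 than in lot 2, and LINC02367, with 50 and 87 counts, sat exactly at the minimum of the rule.

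The most abundant LINC RNA of untreated U937 was LINC00926, a gene best described in B cells. Its level was 401 and 157 CPM untreated and 41.3 and 56.7 CPM with PMA. The groups did not overlap, but the untreated lots lay far apart, and the difference did not pass the test (log2 fold change −2.51 ± 0.55, edgeR adjusted p = 0.0632). Leaving out untreated lot 1 or untreated lot 2 gave edgeR adjusted p-values of 0.0344 and 0.0201. It held 38.8% and 23.8% of all member counts in untreated lots 1 and 2. Of the B-cell markers, CD79A was low in all 4 libraries, at 1.68 to 6.88 CPM, and MS4A1 was at 0, and their part in the LINC00926 level was not tested.

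LINC02470, in the cluster of C-type lectin genes, followed at 117 and 37.0 CPM untreated and at 5.89 and 1.67 CPM with PMA. Every untreated value was above every PMA value, and lot 1 was the higher in both groups (log2 fold change −4.35 ± 0.94, edgeR adjusted p = 0.0618, and 0.0336 with the replicate block). It was also called without PMA lot 1 (0.0373) and without untreated lot 2 (0.0364). Per kb of transcript, LINC00926 had mean levels of 110 CPM untreated and 19.4 CPM with PMA, and LINC02470 of 78.7 and 3.86 CPM. The third, LINC01709, had a mean of 23.0 CPM per kb untreated.

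With PMA, the order changed. LINC00963, a gene studied in prostate cancer, was at 60.4 and 59.9 CPM untreated and 86.6 and 66.6 CPM with PMA, the highest mean of the treated group before scaling to length. Its log2 fold change was 0.35 ± 0.33 (edgeR adjusted p = 0.568). LINC01128 was at 16.6 and 19.96 CPM untreated and 39.9 and 45.3 CPM with PMA (log2 fold change 1.22 ± 0.37, edgeR adjusted p = 0.109). Of the 12 members with the highest mean in each group, 6 were the same genes. LINC00667, also on both lists, was at 16.0 and 17.8 CPM untreated and 21.7 and 16.9 CPM with PMA, and its groups overlapped (log2 fold change 0.19 ± 0.40, and −0.07 without PMA lot 1).

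**Figure D2:**
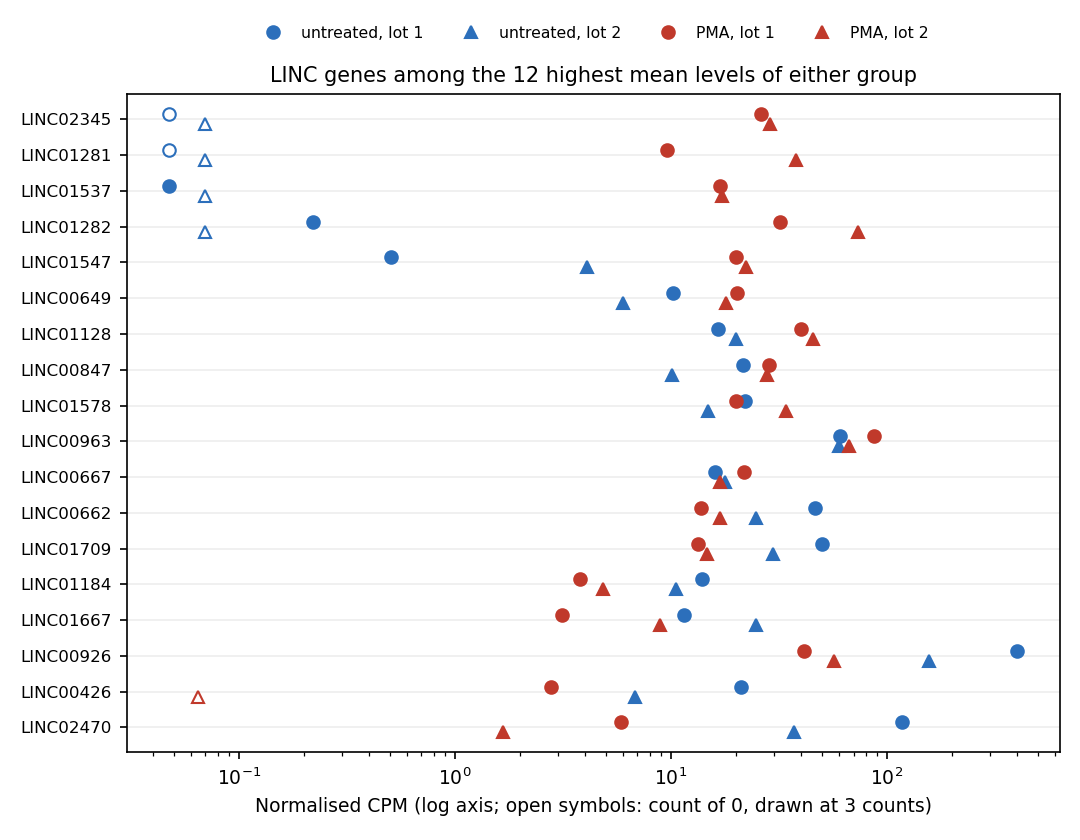
Normalised CPM (log axis) in each library for the LINC genes among the 12 highest mean levels of either group, ordered by fitted log2 fold change; open symbols are counts of 0 drawn at 3 counts. LINC00926 reaches 401 and 157 CPM untreated, and LINC00963 stays between 59.9 and 86.6 CPM in all 4 libraries.

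Other abundant LINC genes were higher untreated without passing the test. LINC01709 was at 50.02 and 29.5 CPM untreated and at 13.4 and 14.7 CPM with PMA (edgeR adjusted p = 0.103). LINC00662 was at 46.5 and 24.8 CPM untreated and at 13.7 and 17.0 CPM with PMA (edgeR adjusted p = 0.184). In each, untreated lot 1 was the highest library and the groups did not overlap. LINC00426 had 21.2 and 6.82 CPM untreated and 2.79 and 0 CPM with PMA (edgeR adjusted p = 0.366, and 0.0147 without PMA lot 1). LINC02610 had 13.9 and 9.53 CPM untreated and 0 and 0.865 CPM with PMA (edgeR adjusted p = 0.159, and 0.0148 without PMA lot 2). Both of these rest on which PMA library is kept, since 1 of the pair was at 0. LINC00528 was at 4.24 and 8.04 CPM untreated and at 0.583 and 0.281 CPM with PMA (log2 fold change −3.83 ± 0.84, edgeR adjusted p = 0.0630, and 0.0358 without untreated lot 1). LINC01184, LINC01667 and LINC00649 were among the abundant members too, with fitted log2 fold changes of −1.505, −1.59 and 1.24 and edgeR adjusted p-values of 0.140, 0.250 and 0.187.

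Several members were higher with PMA in every library and not called. LINC01547 was at 0.506 and 4.10 CPM untreated and at 20.1 and 22.3 CPM with PMA (log2 fold change 3.21 ± 1.05, edgeR adjusted p = 0.132). Its PMA values were close while the untreated lots differed widely, and without untreated lot 1 or untreated lot 2 it was called (0.0429 and 0.0205). LINC01137, which starts head to head with ZC3H12A, was at 2.104 and 2.87 CPM untreated and at 9.36 and 12.4 CPM with PMA (log2 fold change 2.13 ± 0.55, edgeR adjusted p = 0.0833). LINC02777 was at 0.760 and 1.48 CPM untreated and at 7.86 and 7.12 CPM with PMA (log2 fold change 2.74 ± 0.69, edgeR adjusted p = 0.0782). LINC00504 was at 0.158 and 0.626 CPM untreated and at 7.61 and 4.69 CPM with PMA (log2 fold change 3.98 ± 0.99, edgeR adjusted p = 0.0772). None of these 4 overlapped between the groups, and LINC00504 met the count rule through the PMA libraries alone.

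Over all 102 members the median log2 fold change was 0.21, against 0.01 for all genes meeting the rule. Members lay within 2-fold in 41 of 102 cases, 40.2%, against 56.1% of all genes meeting the rule, with 33 more than 2-fold higher and 28 more than 2-fold lower. The 4 libraries separated by group in 66 members, 64.7%, which is near the 60.4% of all tested genes. Both lots moved the same way in 79 members, 77.5%, against 76.6% of all genes meeting the rule. With a count of 0 set to 3 counts, 3 members (2.94%) moved 2-fold or more in opposite directions in the 2 lots, against 1.55% of all genes meeting the rule, and each of the 3 had a count of 0 in 1 library. An edgeR unadjusted p under 0.05 was found for 32 members, of which 18 were not called. No share over all genes stands beside this count, so it is only a description.

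**Figure D3:**
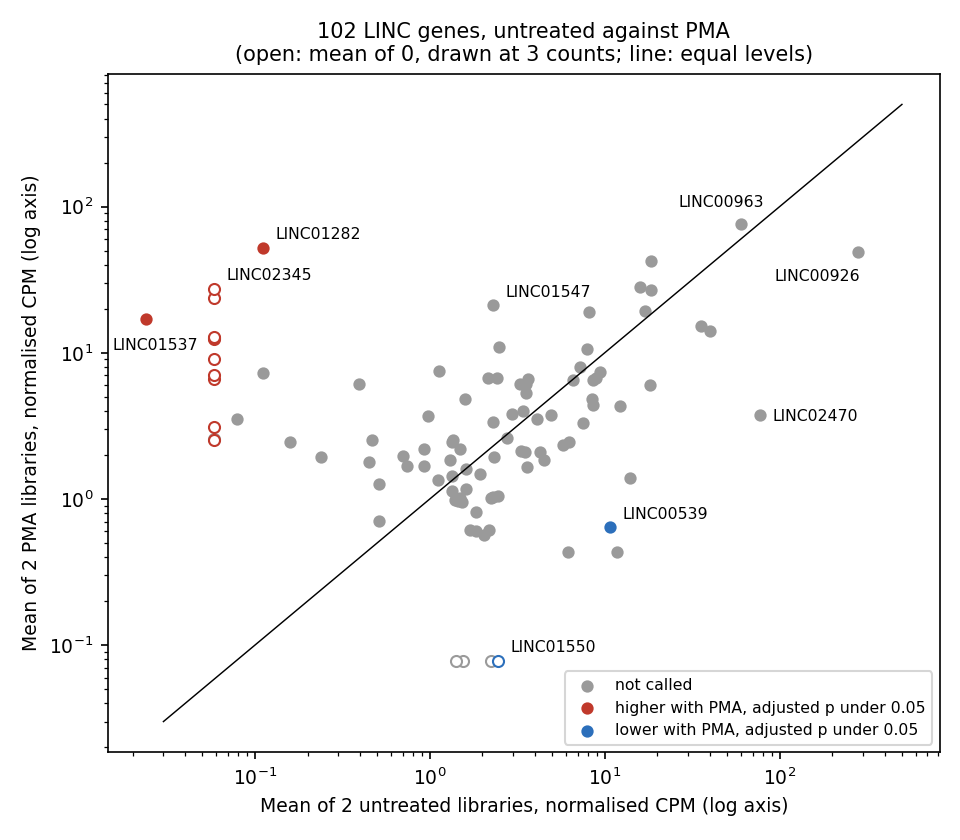
Mean normalised CPM of the 2 untreated libraries against that of the 2 PMA libraries (both axes log) for all 102 LINC genes, with called genes in colour and the line of equal levels; open symbols have a mean of 0 in a group and are drawn at 3 counts. The genes called higher lie at the left edge, and 41 of 102 lie within 2-fold of the line.

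The 38 members with at least 50 counts in all 4 libraries were spread about as widely as other genes of that kind. Of these, 25 were within 2-fold, 65.8%, against 62.9% of the 10887 genes with 50 counts in all 4 libraries. Their median absolute log2 fold change was 0.76, against 0.74, and their fitted values ran from −4.35 (LINC02470) to 2.13 (LINC01137). None was called, beside 6.56% of the 10887, and the smallest adjusted p was 0.0618. LINC00623 and LINC01089 had the fold changes nearest to 0 among them, at −0.01 ± 0.53 and −0.07 ± 0.66.

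Among LINC genes with an established name or studied product, 14 were members and none was called, beside 7.68% of all genes meeting the count rule. LINC01578, now named CHASERR and known for restraining its neighbour CHD2, was at 22.04 and 14.8 CPM untreated and at 20.01 and 34.0 CPM with PMA (edgeR adjusted p = 0.528). LINC00467, which encodes a small mitochondrial protein, was at 4.53 and 2.29 CPM untreated and at 3.47 and 4.52 CPM with PMA (edgeR adjusted p = 0.871). LINC01138, known to bind the methyltransferase PRMT5, was at 5.25 and 3.22 CPM untreated and at 1.66 and 2.55 CPM with PMA (edgeR adjusted p = 0.430). The groups overlapped for LINC01578 and LINC00467 and not for LINC01138. Over the 19 genes of this list that were tested, none was called in either direction, beside 6.30% of all tested genes. A list this short can hold no call at that share. Its median log2 fold change was 0.19.

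The lots differed widely for some members. In 13 members 1 library of a pair was at 0, and in 6 of these the other library of the group had at least 50 counts. LINC00339, a gene tied to CDC42 expression, had 141 and 640 counts untreated and 285 and 0 with PMA (edgeR adjusted p = 0.828, and 0.0379 without PMA lot 1). LINC01963 had 37 and 90 counts untreated and 74 and 0 with PMA, and LINC02298 had 65 and 0 untreated and 5 and 58 with PMA. In these 3 genes the lots went in opposite directions, and the sign of the fitted fold change turned without untreated lot 2 or without PMA lot 2. LINC02019 had 123 and 0 counts untreated and 48 and 273 with PMA. The zero libraries of the 6 genes were untreated lot 2 or PMA lot 2, and depth there was not the lowest of the 4. Genes above 0 numbered 23213 and 19080 in untreated lots 1 and 2, and 20820 and 19939 in PMA lots 1 and 2. LINC rows above 0 numbered 273 and 148 untreated and 246 and 210 with PMA, with untreated lot 2 the lowest in each count. A listed 0 may be a failed estimate, which was not tested. Over members with a count above 0 in every library (n = 74), the median absolute log2 ratio of lot 1 to lot 2 was 0.80 untreated and 0.74 with PMA. For all genes meeting the rule it was 0.68 and 0.37. In the middle range of mean level, 1.39 to 6.51 CPM, it was 0.79 and 0.82 for 38 members and 0.88 and 0.63 for 1212 protein-coding genes.

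Members took a small share of the transcriptome. They held 0.119% and 0.0688% of counts in untreated lots 1 and 2, and 0.0609% and 0.0741% in PMA lots 1 and 2. Untreated lot 1 stood above the other 3 libraries, which lay close together. Group means were 0.0940 ± 0.0356% untreated and 0.0675 ± 0.00932% with PMA (SD, n = 2), and an exact permutation test of 2 against 2 cannot go below 0.333. The most abundant member was LINC00926 in both untreated libraries, LINC00963 in PMA lot 1 and LINC01282 in PMA lot 2. Without it the shares were 0.0730% and 0.0524% untreated and 0.0530% and 0.0675% with PMA, with means of 0.0627% and 0.0603%. The groups overlapped with and without that member. The number of members with at least 50 counts was 75 and 69 untreated and 72 and 81 with PMA, so the groups overlapped in this count.

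At the threshold of the rule, the 5 members just inside were LINC02367, LINC01409, LINC02637, LINC01011 and LINC01410, with second-highest counts of 50 to 54. The 5 LINC genes just outside were LINC01473, LINC00997, LINC02762, LINC00634 and LINC01534, with 42 to 47.

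Protein-coding neighbours were a measure the rule did not use. The nearest such gene on each side in the RefSeq gene order gave 191 distinct neighbours, of which 138 were tested, with 12 called higher and 8 called lower. That is 14.5%, against 7.80% of tested protein-coding genes and 6.30% of all tested genes, and the neighbours' median log2 fold change was 0.37. Of 145 pairs with both genes tested, 99 had fitted fold changes of the same sign, 68.3%. Paired with every tested protein-coding gene in place of the neighbour, the same LINC genes had the sign in common in 50.3%. These are descriptions of this gene order, with no test of adjacency.

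For the 14 called members, 19 neighbours were tested and 5 were called, all in the direction of the LINC gene. SGK1, the serum- and glucocorticoid-regulated kinase beside LINC01010, was at 7.10 and 7.12 CPM untreated and at 584 and 790 CPM with PMA (log2 fold change 6.59 ± 0.39, edgeR adjusted p = 0.0148). CCRL2, an atypical receptor that binds chemerin, beside LINC02009, was at 2.41 and 3.31 CPM untreated and at 51.5 and 58.4 CPM with PMA (edgeR adjusted p = 0.0224). PDE2A, a cyclic nucleotide phosphodiesterase 2.92 kb from LINC01537, was at 0 untreated and at 15.8 and 11.4 CPM with PMA (edgeR adjusted p = 0.0244). All 3 neighbours were separated between groups in every library. Their LINC genes were too, but these met the count rule through the PMA libraries alone. SPRED1, an inhibitor of Ras signalling beside LINC02345, was at 3.15 and 2.27 CPM untreated and at 73.7 and 44.0 CPM with PMA (edgeR adjusted p = 0.0247). VRK1, a kinase of dividing cells, was the nearest tested gene to LINC01550 although 1044 kb away, and was at 50.8 and 49.98 CPM untreated and 5.37 and 5.45 CPM with PMA (edgeR adjusted p = 0.0253). KLF6, a zinc-finger transcription factor beside LINC00702, was at 56.1 and 22.1 CPM untreated and at 203 and 307 CPM with PMA without passing the test (edgeR adjusted p = 0.0599).

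**Figure D4:**
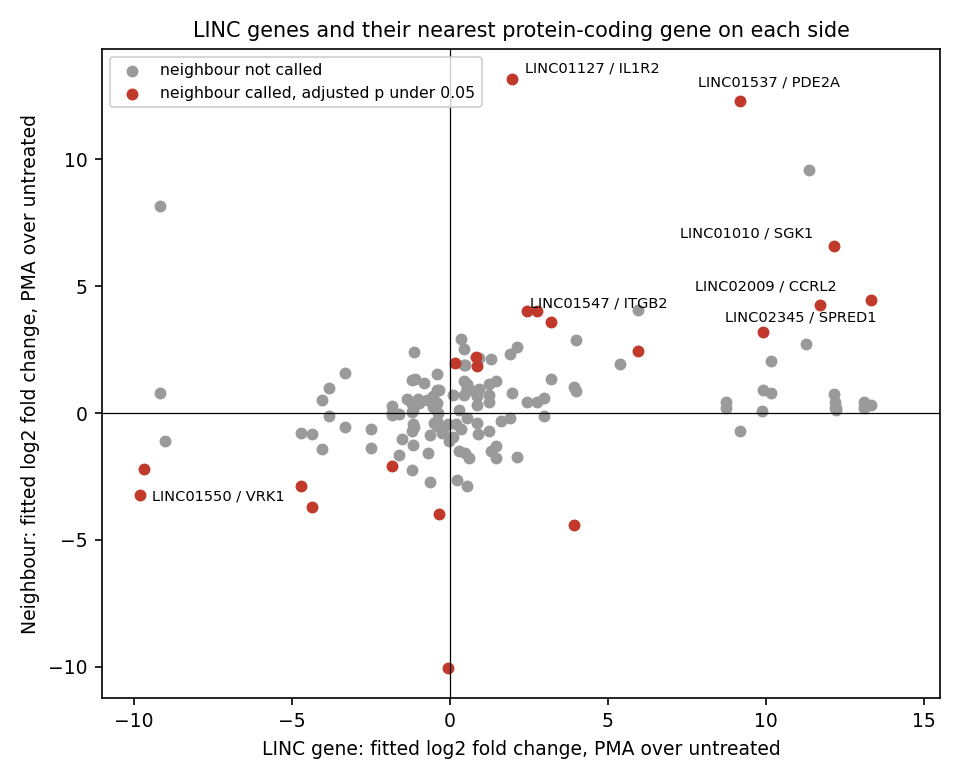
Fitted log2 fold change of each LINC gene (x axis) against that of its nearest protein-coding gene on each side in RefSeq (y axis), one point per tested pair, with called neighbours in red; fold changes of genes at 0 in a group depend on the prior count. Same-sign pairs number 99 of 145.

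Other members, not called themselves, lay beside called genes. LINC01547 is next to ITGB2, the beta chain of the leukocyte integrins, which was at 927 and 933 CPM untreated and 10451 and 11987 CPM with PMA (log2 fold change 3.59 ± 0.28, edgeR adjusted p = 0.0161). JUN, a subunit of AP-1, is the nearest gene on 1 side of both LINC02777 and LINC01358, and was at 17.1 and 56.4 CPM untreated and 452 and 735 CPM with PMA (edgeR adjusted p = 0.0440). IL1R2, the decoy receptor of interleukin-1, beside LINC01127, was at 0 untreated and at 34.2 and 15.8 CPM with PMA (edgeR adjusted p = 0.0253). Fitted fold changes of these LINC genes had the sign of the neighbour. CLEC2A, the lectin gene next to LINC02470, fell from 47.2 and 45.8 CPM to 5.00 and 2.18 CPM (edgeR adjusted p = 0.0353). The myeloid lectin CLEC12A on its other side was at 41.7 and 53.5 CPM untreated and at 31.3 and 22.5 CPM with PMA (edgeR adjusted p = 0.257). A pair of opposite sign was LINC00324, at 0.316 and 0 CPM untreated and 2.82 and 2.12 CPM with PMA, beside the mitotic kinase AURKB, which fell from 78.8 and 116 CPM to 5.52 and 3.59 CPM (edgeR adjusted p = 0.0229).

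In GENCODE release 29, 6 members start within 2000 bases of a protein-coding gene on the opposite strand. ZC3H12A, which encodes an RNase that degrades inflammatory messenger RNAs, faces LINC01137 and was at 3.42 and 9.34 CPM untreated and at 30.5 and 46.2 CPM with PMA (edgeR adjusted p = 0.0771). Neither gene of that pair was called, and in both the PMA libraries lay above the untreated ones. LINC01547 faces FAM207A, which was at 8.51 and 20.7 CPM untreated and at 13.7 and 22.9 CPM with PMA (edgeR adjusted p = 0.786), and SETD1B, facing LINC01089, had a log2 fold change of −0.19 ± 0.35. Exons of 16 members overlap exons of a protein-coding gene, among them LINC00339, LINC00649 and LINC01184. Whether counting used the strand is not known from the labels, so reads of such pairs cannot be told apart. No member at 0 in both libraries of a group had such an overlap. Of the 102 members, 78 are typed as lincRNA there, 11 as processed transcripts and 6 as antisense, and 1 as protein coding.

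The base composition of the promoters was set beside the pattern of expression. Among members at 0 in both untreated libraries (n = 7 with a promoter), the 300 bases held a median of 3 CG dinucleotides, with a range of 0 to 5. Members with at least 50 counts in all 4 libraries (n = 27) had a median of 21, with a range of 1 to 43, and all 27305 RefSeq promoters had a median of 14. LINC00963 held 43 in a sequence of 78.0% GC, whereas LINC00702 held 0 in a sequence of 31.3% GC. The ranges overlap, since 5 or fewer were also found among the members with at least 50 counts in all 4 libraries. Expression chose these sets, so the contrast is a description and carries no test.

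**Figure D5:**
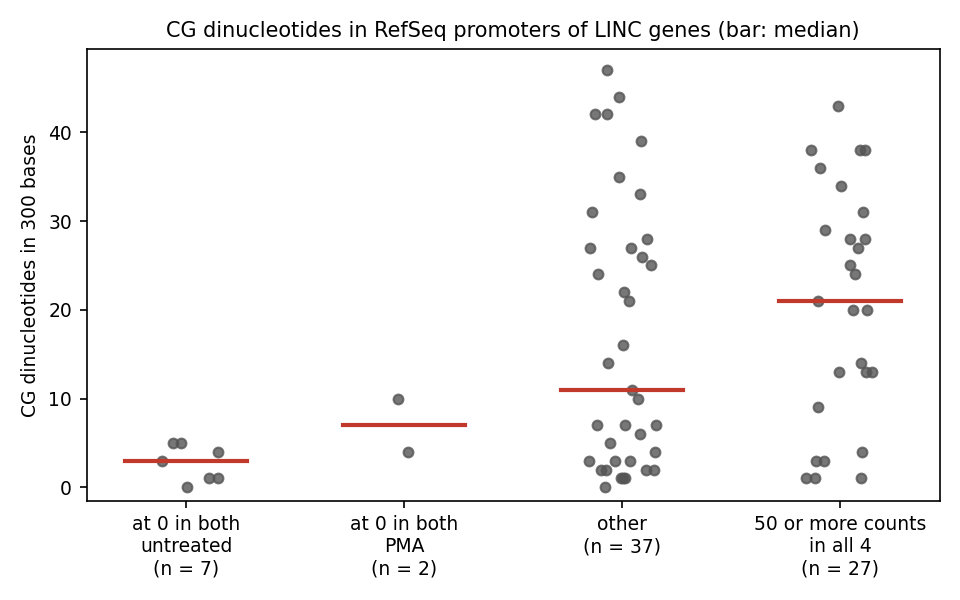
CG dinucleotides in the 300-base RefSeq promoter (y axis) of each of the 73 LINC genes with one, by pattern of expression, with 1 point per gene and a bar at the median. The medians are 3 for genes at 0 in both untreated libraries and 21 for genes with at least 50 counts in all 4 libraries.

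Both strands of the promoters were searched for 7 motifs, AP-1 (TGANTCA), CRE (TGACGTCA), the PU.1 core (GAGGAAGT), the E-box (CACGTG), EGR (GCGTGGGCG), the TATA box (TATAAA) and, by name, an NF-kB consensus. None of these contains another, and no matches of different motifs overlap in the printed sequences. AP-1, the JUN and FOS factor family that phorbol esters activate, had a match in 3 of the 9 genes that rose and have a promoter (LINC00702, LINC02009 and LINC01010), in 10 of 73 members (13.7%) and in 7.76% of all promoters. LINC00963, which was not called, also holds a match. LINC02345 and LINC01282, the genes with the highest levels per kb among those that rose, hold none of the 7. LINC02009 also holds an E-box, present in 7.43% of all promoters, and LINC00539 a PU.1 core, present in 2.54%. NF-kB and EGR matches were found in no member and in 0.194% and 0.784% of all promoters. A match describes letters in this window and no bound factor.

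The authors' deposited table calls 14 members higher and 7 lower at its own threshold, beside 2.22% of all rows. Of all rows, 55.6% were at 0 in all 4 libraries, so that share is not matched to members chosen by their counts. All 14 genes called by edgeR are among those 21. In the authors' deposited table LINC00926 had a log2 ratio of −2.52 with a q-value of 0.0146, and LINC02470 of −4.37 with a q-value of 0.00253.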

How the data were processed

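U937 cells gave 4 RNA libraries, 2 per group, from poly(A)-enriched RNA read on the Ion Proton platform, per the labels' protocols. HISAT2 2.1.0 and StringTie 2.1.1 are listed, without roles, per the submitters' processing notes. No genome build, annotation, counting program or strand setting is named (not given in the sources used here). Estimated counts per gene, whole numbers not scaled between libraries, were deposited by the authors. In a second table the authors deposited the count times 1 factor per library (a signal), with their log2 ratio, log2 mean level, p-value, q-value and a rank score by p-value.

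Counts were fitted with edgeR 4.0.16 in R 4.3.3 (TMM factors, filterByExpr by group, quasi-likelihood test without a block, Benjamini-Hochberg adjustment at 0.05). The fit was tested on simulated data with a smaller spread than these data, where only abundant genes were changed. That check does not cover genes at 0 in 1 group. Depth was 35739833 to 54915928 counts. Lot numbers in the titles pair the libraries, and deviations of same-lot libraries from their group means correlated at 0.154 across genes. Alternatives were RLE, upper-quartile and the authors' factors, no filter, a filter of 50 counts in 2 libraries, DESeq2 1.42.0, limma-voom (limma 3.58.1), the lot as a replicate block, and leaving out each library. Leaving out each library for the share of counts was added after seeing the data.

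The members and lists were chosen with earlier results of these data known. Named genes are the called members, the 12 highest means per group, the 10 highest and 10 lowest fitted fold changes, members at 0 in a group or with lots in opposite directions, 5 genes on each side of the minimum, LINC genes with other established names, and called protein-coding neighbours. Not every gene so named is printed, and the values of 1 marker gene are not reported here. Transcript lengths, gene types and overlaps came from GENCODE release 29, and gene order and promoters from RefSeq on GRCh38.p14; neither may be the authors' annotation, so coordinates belong to the promoters alone. Of the 102 members, 102 matched GENCODE by identifier and 73 a promoter by symbol.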

Additional observations from a re-analysis of the deposited data

How the results depend on the processing

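The number of LINC genes called higher with PMA, 12 as reported, was 10 to 13 with RLE, upper-quartile or the authors' factors, without the filter and with the filter of 50 counts. It was 18 by limma-voom and 34 by DESeq2. The number called lower, 2 as reported, was 1 with RLE factors, 8 with the filter of 50 counts, 5 by limma-voom and 16 by DESeq2. With the lot as a replicate block, 7 were called higher and 1 lower. The 7 were among the 14 reported calls, and the 1 lower was LINC02470, which is not among them. Leaving out 1 library at a time gave 9 to 22 higher and 1 to 4 lower. For most of these changes the cause was not tested.

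Of the 14 called genes, 6 were called under all 12 alternatives: LINC01010, LINC01283, LINC01537, LINC01588, LINC02009 and LINC02345. Over 37 named genes and 12 alternatives, 375 of 444 comparisons kept direction and side of the threshold, 25 lost a call, 37 gained one and 7 reversed. The reversals came from leaving out 1 library, when the log2 fold change of LINC00667 ran from −0.066 to 0.37, of LINC00339 from −11.8 to 0.97, of LINC01963 from −9.11 to 0.95 and of LINC02298 from −1.72 to 7.83. Over all genes, the median log2 fold change became −0.17 with upper-quartile factors. The number of members, 102, would be 162 with 20 counts in 2 libraries, 65 with 100 counts in 2, 162 with 50 counts in 1 and 38 with 50 counts in all 4. With the 20 most abundant genes and the mitochondrial ones left out of the total, the mean share of counts was 0.108% untreated (0.134% and 0.0819%) and 0.0818% with PMA (0.0734% and 0.0903%). With 2 libraries per group, members at a few CPM lie near the threshold, and depth sets the bound of each fold against 0.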

Other observations

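Other classes of long noncoding RNA gene were counted in the same fit, with no test between classes. Of 323 tested antisense genes 6 were called higher and 1 lower, 2.17% in all, and of 49 tested divergent transcripts none was called. Of 17 tested microRNA host genes 1 was called higher. Among 25 tested long noncoding RNAs with names of their own, 3 were called higher and none lower, beside 6.30% of all tested genes called. MALAT1, a nuclear RNA of splicing speckles, was at 28.1 and 16.6 CPM untreated and at 250 and 224 CPM with PMA (edgeR adjusted p = 0.0253). LUCAT1 (edgeR adjusted p = 0.0467) and MIR22HG, the host of miR-22 (edgeR adjusted p = 0.0402), also rose. EPB41L4A-AS1, DANCR and PVT1 had log2 fold changes of −2.16, −2.46 and −3.06 without passing the test (edgeR adjusted p = 0.0592, 0.0618 and 0.0609). FTX had a log2 fold change of 2.30 and likewise did not pass (edgeR adjusted p = 0.0640).

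A list of 32 genes covered the nuclear exosome, its adaptors and cap binding, which process and degrade long noncoding RNA. It also held INTS genes, CPSF3, XRN2 and NXF1, which act in RNA processing, decay or export. None of the 32 was called in either direction by edgeR, beside 6.30% of all tested genes. A list this short can hold no call at that share. The median log2 fold change was −0.56. The exosome subunits EXOSC5 and EXOSC2 were nearest to the threshold, with log2 fold changes of −1.98 and −2.59 (edgeR adjusted p = 0.0506 and 0.0532).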
